A study of Mus musculus with 20 samples.

Results

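SCA7 mice that received the shRNA shA4 were compared with SCA7 mice that received a scrambled shRNA, gene by gene, to see which cerebellar transcripts differ between both treatments and which mice each difference rests on. The comparison takes 10 of the 20 mice of the study, chosen by the treatment and genotype in their labels, namely 5 SCA7 mice with AAV-shA4 and 5 with AAV-shSCR. All 10 carry the genotype SCA7 140Q/5Q knock-in on the strain C57BL/6J, and their cerebella are labelled 25 weeks. The starting point of these weeks is not given in the labels. The study's text counts the time of analysis of these mice from the injection and gives fewer weeks than the labels. The labelled weeks are therefore not read as ages here. Per the study's methods, each mouse had 1 injection into the retro-orbital sinus, before symptoms, of an AAV PHP.eB vector that carries a CMV promoter driving eGFP and an H1 promoter driving the shRNA. The scrambled vector therefore gives the control mice the same capsid, reporter and promoter, and no group of untreated SCA7 mice was analysed here. As a reference, 4 untreated wild-type (WT) mice of the same strain and week, which according to the methods received saline, were fitted together with them. These WT mice differ from both SCA7 groups in genotype and in having no vector, which cannot be told apart in comparisons with them. The other 6 mice are WT at 9 weeks, 3 with AAV-shA4 and 3 untreated, and their values are given at the end.

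SCA7 is a dominant ataxia in which a CAG repeat in the gene of ataxin-7, a subunit of the SAGA chromatin complex, is expanded and encodes a long polyglutamine tract. Purkinje cells (PCs), the output neurons of the cerebellar cortex, are among the cells it harms, and the loss of transcripts that PCs need for glutamate, calcium and potassium signalling is a known sign of it. An shRNA is processed by Dicer into a small RNA that guides an Argonaute protein to a matching transcript, and shA4 is directed at CAG repeats with mismatches. Such a duplex can lower a protein by blocking its translation, with or without loss of the mRNA. Per the study, the vector reached most PCs and few granule cells, which are by far the most numerous neurons of the tissue, and RNA of all cells was read together.

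Between 31465586 and 44708557 reads per AAV-shA4 mouse, and 33758498 to 40621179 per AAV-shSCR mouse, were counted on genes. Levels are given as CPM, read counts scaled by edgeR's TMM method to a common library size, and they are not corrected for the length of the gene. Markers of the tissue were plentiful in both groups, such as Pcp2 of PCs at a mean of 403 CPM with AAV-shA4 and 405 CPM with AAV-shSCR, and Gabra6 of granule cells at 811 and 808 CPM. Some libraries stood apart from the others. AAV-shA4 replicate 1 and WT replicate 1, and more weakly AAV-shA4 replicate 3, held transcripts that are known from neurons outside the cerebellar cortex and were scarce in the other libraries. Cbln2, which encodes a secreted synapse organiser, was at 13.3, 11.0 and 1.38 CPM in these mice and at most at 0.455 CPM in the other 11 late mice. AAV-shA4 replicate 2 had the lowest level of choroid plexus transcripts. The main results were therefore also computed without AAV-shA4 replicates 1 and 3 and WT replicate 1, and these values are given as those without the 3 libraries. P-values measure the spread between mice, each library being the cerebellum of 1 mouse.

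The CAG stretches that bear on the target are shown first, with the CAG run in capitals. Atxn7 is the targeted gene, and Crebbp and Maml3 are, by unadjusted p, the leading members of the genes with a run of at least 6 CAG in an annotated transcript. All 3 runs lie in frame in coding exons of the reference (build GRCm38). Atxn7 is read at chr14:14013149-14013177 on the plus strand, in exon 2 of 12, where the normal mouse allele has 5 CAG and the knock-in allele, whose repeat is not in the reference, has the expansion. Crebbp is read at chr16:4084729-4084758 on the minus strand, in exon 31 of 31, with 6 CAG. Maml3 is read at chr3:51697577-51697606 on the minus strand, in exon 2 of 4, with 8 CAG.
Atxn7: cgcccggCAGCAGCAGCAGCAGccacagc
Crebbp: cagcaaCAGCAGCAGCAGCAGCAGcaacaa
Maml3: caaCAGCAGCAGCAGCAGCAGCAGCAGatc

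The Atxn7 mRNA did not differ between treatments beyond the spread between mice. Atxn7 was counted with both alleles together. Its level with AAV-shSCR was 46.0 CPM in replicate 1, 53.8 in replicate 2, 48.5 in replicate 3, 50.9 in replicate 4 and 50.4 in replicate 5. With AAV-shA4 it was 44.7 CPM in replicate 1, 48.0 in replicate 2, 50.1 in replicate 3, 47.9 in replicate 4 and 52.1 in replicate 5. Both groups overlapped over most of their range, and the highest value belonged to a control mouse. The mean was 48.5 ± 2.75 CPM with AAV-shA4 and 49.9 ± 2.90 CPM with AAV-shSCR (SD, n = 5 each), a percent change of −2.80% with a 95% interval from −9.16% to 4.01%. Leaving out single mice moved the log2 fold change between −0.068 (without AAV-shSCR replicate 1) and −0.012 (without AAV-shSCR replicate 2). An exact two-sided permutation test over 5 against 5 mice, whose smallest possible p is 0.00794, gave p = 0.460. Since translation and protein were not measured in these libraries, the values concern the mRNA alone.

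No single gene passed the limits of the comparison across all genes. Of 14862 protein-coding genes with enough reads, 0 were called (0% of those tested), a call meaning a fold change over 1.3 upwards or downwards and an adjusted p below 0.05 by edgeR's quasi-likelihood test after Benjamini-Hochberg adjustment. The adjusted p alone was passed by 0 genes as well, and its lowest value was 0.194. An unadjusted p under 0.05 was reached by 1222 genes (8.22%), 630 higher (4.24%) and 592 lower (3.98%) with AAV-shA4. DESeq2, run on the same counts, put 23 genes under an adjusted p of 0.05, and 4 of them also passed the fold limit. The differences were small for most genes. The median over all genes of the absolute log2 fold change was 0.049, and that of the signed one was 0.00021, with 50.1% of genes above 0. By comparison, against the same WT mice, 597 genes were called with AAV-shSCR (4.02%) and 513 with AAV-shA4 (3.45%). These contrasts share mice with each other and with the present one, so that the counts are set side by side only.

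**Figure D1:**
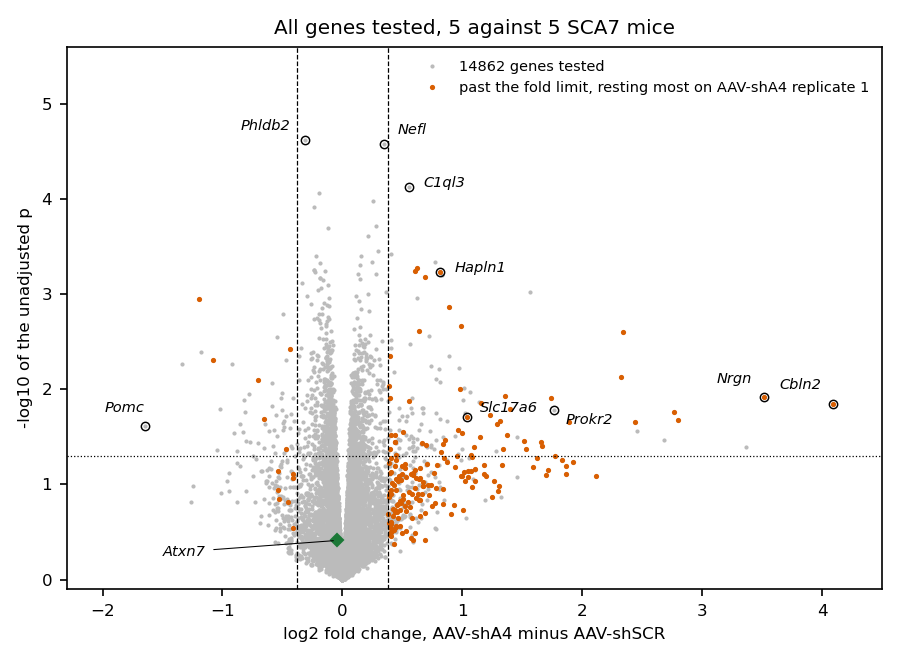
Each grey point is 1 of 14862 genes, with the log2 fold change of AAV-shA4 over AAV-shSCR on the x axis and −log10 of the unadjusted p on the y axis. Orange points are genes past the fold limit of 1.3 that rest most on AAV-shA4 replicate 1, and named genes are circled. The genes with the smallest p, Nefl and Phldb2, lie inside the fold limit. The largest fold changes, such as Cbln2 at 4.09 on the log2 scale, had larger p.

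The gene with the smallest p among those higher with AAV-shA4 was Nefl, the light chain of the neurofilaments that set axon calibre, on chromosome 14 from 68083863 to 68089095. Its level was 255, 259, 259, 258 and 267 CPM in AAV-shA4 replicates 1 to 5 and 219.9, 200.4, 215, 187 and 201 CPM in AAV-shSCR replicates 1 to 5. The treated mice lay close together and all above the control mice, and within the range of the 4 WT mice, at 236 to 311 CPM. The log2 fold change was 0.34 ± 0.059 (SE), with an adjusted p of 0.194 by edgeR's quasi-likelihood test after Benjamini-Hochberg adjustment. This p depended on the mice that set the spread: it was 0.0142 without WT replicate 1 and 0.00648 with the 10 SCA7 libraries fitted alone, and it ranged from 1.55e-04 to 0.644 over 22 alternatives. Its log2 fold change stayed between 0.31 and 0.37 when any 1 of the 14 mice was left out.

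Scn4b, the β4 subunit of sodium channels that supports the fast firing of PCs, is the PC gene with the smallest p. It was at 101.7, 107, 110.0, 104 and 113 CPM with AAV-shA4 and at 92.5, 85.5, 97.6, 80.4 and 83.5 CPM with AAV-shSCR. Every treated mouse was above every control mouse, and all 10 were below the WT mice, at 131 to 160.5 CPM. The log2 fold change between treatments was 0.28 ± 0.059 (SE; adjusted p = 0.325 by edgeR's quasi-likelihood test after Benjamini-Hochberg adjustment, 0.0107 to 0.927 over the alternatives). Set against WT mice, AAV-shSCR gave −0.67 and AAV-shA4 −0.39.

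C1ql3, a secreted C1q-like protein of synapses, had the largest log2 fold change of the 8 leading genes higher with AAV-shA4, 0.55 ± 0.11 (SE). It was measured at 10.9, 14.7, 14.6, 14.2 and 16.2 CPM in treated and 10.3, 9.82, 11.3, 7.51 and 9.26 CPM in control mice, so that the groups overlapped. The adjusted p was 0.301 by edgeR's quasi-likelihood test after Benjamini-Hochberg adjustment and 0.00146 by DESeq2. Amigo2, a neuronal adhesion protein, was at 28.0, 27.3, 24.4, 28.3 and 21.5 CPM against 18.5, 17.0, 20.8, 17.9 and 23.4 CPM, again with overlap, a log2 fold change of 0.41. Dusp6, a phosphatase that turns off ERK, was at 23.5, 27.9, 24.6, 24.0 and 22.3 CPM against 19.0, 21.4, 21.1, 17.1 and 20.9 CPM without overlap, a log2 fold change of 0.30. In Dusp6 the treated mouse farthest from the controls was replicate 2, and without it the log2 fold change was 0.24.

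The other 3 leading genes also showed all treated above all control mice. Lypd1, a membrane protein that modulates nicotinic receptors, was at 16.4 to 18.4 CPM against 14.1 to 15.1 CPM (log2 fold change 0.25). Lgi2, a secreted leucine-rich protein of interneurons, was at 135 to 147 CPM against 112 to 133 CPM (0.21). Cplx1, a complexin that clamps vesicle fusion at synapses, was at 733 to 759 CPM against 641 to 702 CPM (0.16). Of these 8 genes, chosen for their p, 6 did not overlap between the groups, where 1.51% of all genes tested did not (0.754% in each direction). All 8 had a lower mean with AAV-shSCR than in WT mice, 6 of them past an adjusted p of 0.05, and 5 were lower than WT with AAV-shA4, 2 of them past it (edgeR's quasi-likelihood test after Benjamini-Hochberg adjustment). Both counts rest on the same 4 WT mice. The mice of both treatments also entered the choice of the 8 genes, which favours low values with AAV-shSCR and high ones with AAV-shA4. No move towards WT can therefore be read from these counts. Without the 3 libraries the log2 fold changes of the 8 genes were between 0.17 and 0.64, beside 0.16 to 0.55 with them.

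**Figure D2:**
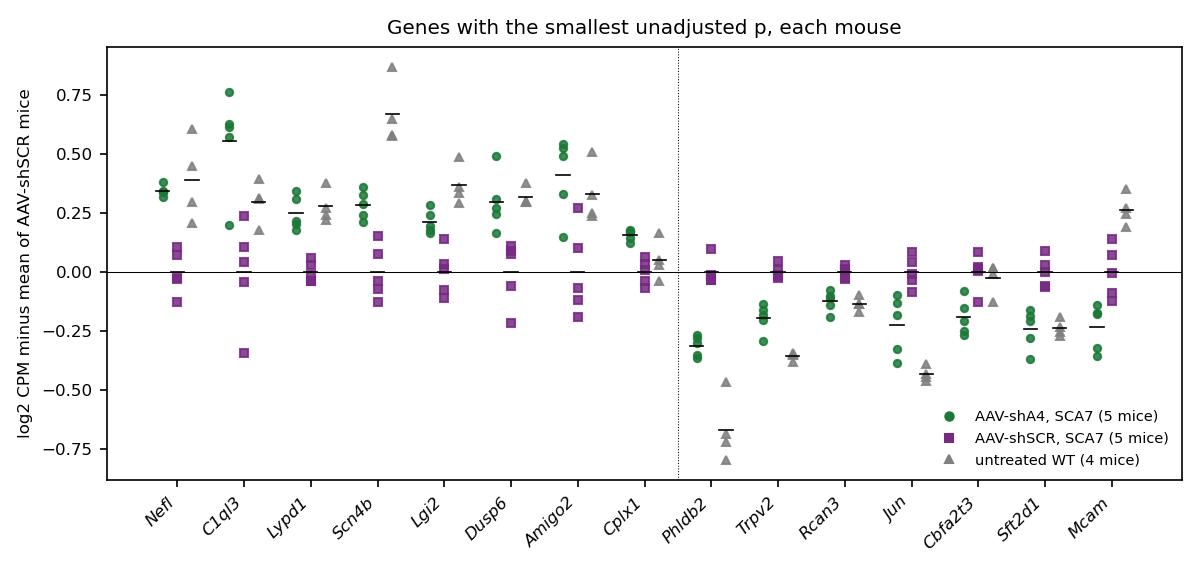
Each symbol is 1 mouse, with the log2 CPM relative to the mean of the AAV-shSCR mice on the y axis, for 8 higher and 7 lower genes among those with the smallest unadjusted p. AAV-shA4 mice lie above all AAV-shSCR mice in 6 of the 8 genes on the left and below all of them in 6 of the 7 on the right, and the WT mice are drawn beside them.

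Among the genes lower with AAV-shA4, Phldb2, a scaffold of the cell cortex at membrane anchoring sites, had the smallest p. It lies on chromosome 16 from 45746243 to 45953598. Treated mice were at 22.05, 22.2, 23.3, 23.0 and 23.6 CPM and control mice at 27.7, 27.7, 28.1, 30.4 and 28.0 CPM. The groups were far apart relative to their spread, and the treated mice lay between the controls and the WT mice, which were at 16.3 to 20.5 CPM. The log2 fold change was −0.31 ± 0.054 (SE; adjusted p = 0.194 by edgeR's quasi-likelihood test after Benjamini-Hochberg adjustment). The adjusted p was 0.0211 without WT replicate 4 and 0.0164 with the 10 SCA7 libraries alone, in a range of 3.28e-04 to 0.644 over the alternatives.

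Jun, a subunit of the AP-1 transcription factor that neurons induce under stress, was at 54.5, 66.7, 56.8, 62.8 and 65.1 CPM against 75.5, 67.1, 70.9, 73.3 and 69.6 CPM. The nearest mice of both groups were at 66.7 and 67.1 CPM, and its log2 fold change of −0.22 was −0.14 without the 3 libraries. Trpv2, a cation channel, was at 20.8 to 23.2 CPM against 25.1 to 26.3 CPM, a log2 fold change of −0.19.

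A further 4 leading genes lower with AAV-shA4 differed by a log2 fold change of −0.24 to −0.12. They were Sft2d1, of vesicle transport, at 8.64 to 9.99 CPM against 10.7 to 11.9 CPM; Mcam, an adhesion protein of vessel walls, at 34.5 to 40.1 against 40.7 to 48.7 CPM; Cbfa2t3, a transcriptional co-repressor, at 64.1 to 73.1 against 70.8 to 81.9 CPM; and Rcan3, a regulator of calcineurin, at 138 to 149 against 154 to 161 CPM. In this direction 7 of the 8 genes, also chosen for their p, did not overlap, Cbfa2t3 being the exception. Of all genes tested, 0.754% did not overlap in this direction. With AAV-shSCR, 7 of the 8 had a higher mean than WT mice, and Mcam a lower one at 44.3 ± 3.35 against 53.2 ± 2.5 CPM (SD, n = 5 and 4). The choice of these genes favours high values with AAV-shSCR, so no move towards WT can be read from this count either. Each of the 16 leading genes kept an unadjusted p under 0.05 without the mouse it rested on most, and that mouse was AAV-shSCR replicate 4 in 7 of them. Since the genes were chosen for a small p in the same mice, this outcome was likely beforehand and is no independent support.

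The 4 genes that DESeq2 called were all higher with AAV-shA4, namely C1ql3 and Amigo2, described above, with Hapln1 and Cacng3, which were named after their values were seen. Hapln1, a link protein of the perineuronal matrix, was at 10.3, 5.91, 8.40, 5.83 and 5.74 CPM in treated and 3.28, 3.91, 4.81, 3.8 and 4.74 CPM in control mice. Cacng3, an auxiliary subunit of AMPA receptors, was at 13.2, 9.15, 10.2, 8.84 and 10.2 CPM against 6.08, 7.14, 6.69, 5.56 and 8.46 CPM. In both genes all treated mice were above all controls, with AAV-shA4 replicate 1 the highest. The log2 fold change of Hapln1 was 0.82, 0.65 without that mouse and 0.50 without the 3 libraries, and that of Cacng3 was 0.61, 0.50 and 0.47. The adjusted p of both was 0.325 by edgeR's quasi-likelihood test after Benjamini-Hochberg adjustment, and 0.0211 and 0.0232 by DESeq2. WT replicate 1 was also the highest of the WT mice in both, at 8.75 and 15.9 CPM.

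Turning to PCs, the 8 genes that the study names for their pathology all had a higher mean with AAV-shA4 than with AAV-shSCR, by a log2 fold change of 0.033 to 0.28, and 0 passed the adjusted p. The study named these genes as restored with AAV-shA4 in these same libraries. That choice favours higher values than with AAV-shSCR, so their shared direction is no independent support. Htr1b, a serotonin receptor, was at 19.6, 18.7, 22.9, 19.9 and 19.4 CPM in treated and 18.7, 17.6, 19.5, 16.0 and 17.7 CPM in control mice, with overlap (log2 fold change 0.17, unadjusted p = 0.0129 and adjusted p = 0.532 by edgeR's quasi-likelihood test). Here AAV-shA4 replicate 3 was the highest, and without it the log2 fold change was 0.12. Calb1, the calcium buffer calbindin, was at 789 to 959 CPM against 756 to 883 CPM (0.056), and Itpr1, the IP3 receptor of the endoplasmic reticulum, at 3148 to 3751 CPM against 3164 to 3539 CPM (0.033). Kcnma1, the large-conductance calcium-activated potassium channel, was at 256 to 302 against 249 to 284 CPM (0.041). Kcnip1, a subunit of A-type potassium channels, was at 49.6 to 55.7 against 49.7 to 55.1 CPM (0.054). Mtss1, which shapes spines through actin, was at 217 to 238 against 205 to 237 CPM (0.059), and Abr, a regulator of small GTPases, at 267 to 288 against 247 to 272 CPM (0.079). Some of these values rested on 1 mouse, as Itpr1 and Kcnma1 were at 0.0038 and 0.0051 without AAV-shA4 replicate 3, and Calb1 and Mtss1 at 0.021 and 0.038 without AAV-shSCR replicate 4. Scn4b was the 1 gene of the 8 whose groups did not overlap. In both SCA7 groups all 8 were below WT mice at an adjusted p under 0.05 by edgeR's quasi-likelihood test after Benjamini-Hochberg adjustment, with log2 fold changes of −0.39 to −0.67 with AAV-shSCR and −0.31 to −0.41 with AAV-shA4, against the same 4 WT mice.

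Of the longer PC lists, the genes of glutamate and IP3 signalling were higher with AAV-shA4 in 13 of 14 tested members, where 50.1% of all genes were higher, with a median log2 fold change of 0.040. None was called, and 0 had an unadjusted p under 0.05. Inpp5a, an inositol phosphatase, at 432 ± 24.4 against 407 ± 21.3 CPM, and Dagla, which makes the endocannabinoid 2-AG, at 120.5 ± 3.87 against 115 ± 6.29 CPM (SD, n = 5 each), had the smallest p of this list. Of the genes of PC identity and excitability, 19 of 25 were higher, with a median of 0.031. Scn4b and Htr1b were the 2 under an unadjusted p of 0.05, 8% higher where all genes gave 4.24%. Both, with Abr, Calb1, Kcnip1, Kcnma1 and Mtss1 of the same list, were named by the study as restored in these libraries. Itpr1 of the signalling list was so named as well. This choice favours higher values with AAV-shA4. When 1 mouse was left out, the median ranged over 0.011 to 0.066 in the former list and 0.019 to 0.051 in the latter, lowest without AAV-shSCR replicate 4 and highest without AAV-shA4 replicate 1. Relative to WT mice, the same lists had a median of −0.53 and −0.44 with AAV-shSCR, and −0.46 and −0.39 with AAV-shA4. In RNA of a whole cerebellum, fewer cells of a type and less RNA per cell cannot be told apart.

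The granule cell genes went the other way, with 15 of 18 lower with AAV-shA4 and a median log2 fold change of −0.059. Among them 16.7% were lower at an unadjusted p under 0.05, where all genes tested gave 3.98%. Members under an unadjusted p of 0.05 were Fat2, a giant protocadherin of parallel fibres (777 to 909.6 against 877 to 1021 CPM, log2 fold change −0.17), Tiam1, an activator of Rac (297 to 350.3 against 353 to 361 CPM, −0.10), and Cadps2, of dense-core vesicles (−0.086). This median depended on the libraries that stood apart. AAV-shA4 replicate 1 was the lowest of the treated mice in Tiam1, at 297 CPM, and without it the log2 fold change of Tiam1 was −0.060 (unadjusted p = 0.0801 by edgeR's quasi-likelihood test). Without the 3 libraries the median of the list was −0.0027. Of the cerebellar interneuron genes, 10 of 16 were higher (median 0.027), and the median was −0.015 without AAV-shSCR replicate 4 and 0.00087 without the 3 libraries. The members with the smallest p, neither with overlap, were Lgi2, given above, and Grm2, the latter a presynaptic glutamate receptor of Golgi cells, at 21.4, 23.7, 21.8, 24.2 and 22.6 CPM against 17.9, 21.2, 20.8, 18.5 and 19.6 CPM (log2 fold change 0.21) and at 30.2 to 33.3 CPM in WT mice.

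Glial genes were mostly a little higher with AAV-shA4. At an unadjusted p under 0.05, all genes tested gave 4.24% higher and 3.98% lower. The oligodendrocyte list gave 12.5% higher, and the list of Bergmann glia and astrocytes 12.5% in each direction. Oligodendrocyte genes were higher in 18 of 24 members (median log2 fold change 0.075), 3 of them at an unadjusted p under 0.05, namely Mal, a myelin proteolipid (100.4 ± 7.08 against 88.9 ± 3.14 CPM), Olig2, a lineage transcription factor (20.04 ± 1.36 against 17.8 ± 1.45 CPM; SD, n = 5 each), and Ermn (0.13 on the log2 scale). Bergmann glia and astrocyte genes were higher in 13 of 16 members (median 0.058), of which Gjb6, a connexin, at 0.17 and Slc1a2, a glutamate transporter, at 0.12 had an unadjusted p under 0.05. Sox9, a glial transcription factor, was lower instead, at 31.3 to 36.6 CPM against 34.4 to 42.2 CPM (log2 fold change −0.18), as was Gfap. Both lists kept their sign when any mouse was left out, at 0.041 to 0.091 and 0.019 to 0.082. Microglial genes had a median of −0.0022, with 10 of 22 higher and P2ry12, a receptor of resting microglia, the 1 member under an unadjusted p of 0.05 (0.18). Endothelial and mural genes had a median of −0.020, with the glucose transporter Slc2a1 higher in all treated mice (142 to 157 against 119.6 to 140.0 CPM, log2 fold change 0.18) and the junction protein Cldn5 lower (19.0 to 21.8 against 20.2 to 26.3 CPM, −0.23). Meningeal genes had a median of −0.043, with 9 of 14 lower, and 0 of them had an unadjusted p under 0.05. The signs of these 3 medians depended on single mice, since that of the microglial list was 0.067 without AAV-shSCR replicate 1, that of the endothelial and mural list 0.011 without AAV-shSCR replicate 4 and that of the meningeal list 0.015 without AAV-shSCR replicate 2. Without the 3 libraries they were 0.070, −0.00024 and −0.11.

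Genes of motile cilia and ependyma were higher in 24 of 29 members, by a median log2 fold change of 0.19, and 4 passed the fold limit, which 4.02% of all genes did. Ccdc153, of ciliated cells, was at 3.62, 4.13, 3.74, 1.70 and 1.88 CPM in treated and 2.38, 1.48, 1.26, 1.08 and 2.87 CPM in control mice. Treated replicates 1 to 3 were above all controls, and replicates 4 and 5 lay within their range. Drc1, of the dynein regulatory complex, was at 3.40, 2.80, 3.12, 1.70 and 2.69 CPM against 2.53, 1.97, 2.13, 2.05 and 2.21 CPM. The list's median was 0.10 without AAV-shA4 replicate 1 and 0.066 without the 3 libraries. Choroid plexus genes were lower in 14 of 14 members, by a median of −0.37, with 0 at an unadjusted p under 0.05. Their summed level was 231 CPM in AAV-shA4 replicate 2 and 5069 CPM in AAV-shA4 replicate 1, a range that held all of the control mice, at 1082 to 4404 CPM. Leaving out 1 mouse moved the median from −0.85 without AAV-shA4 replicate 1 to −0.068 without AAV-shA4 replicate 2.

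**Figure D3:**
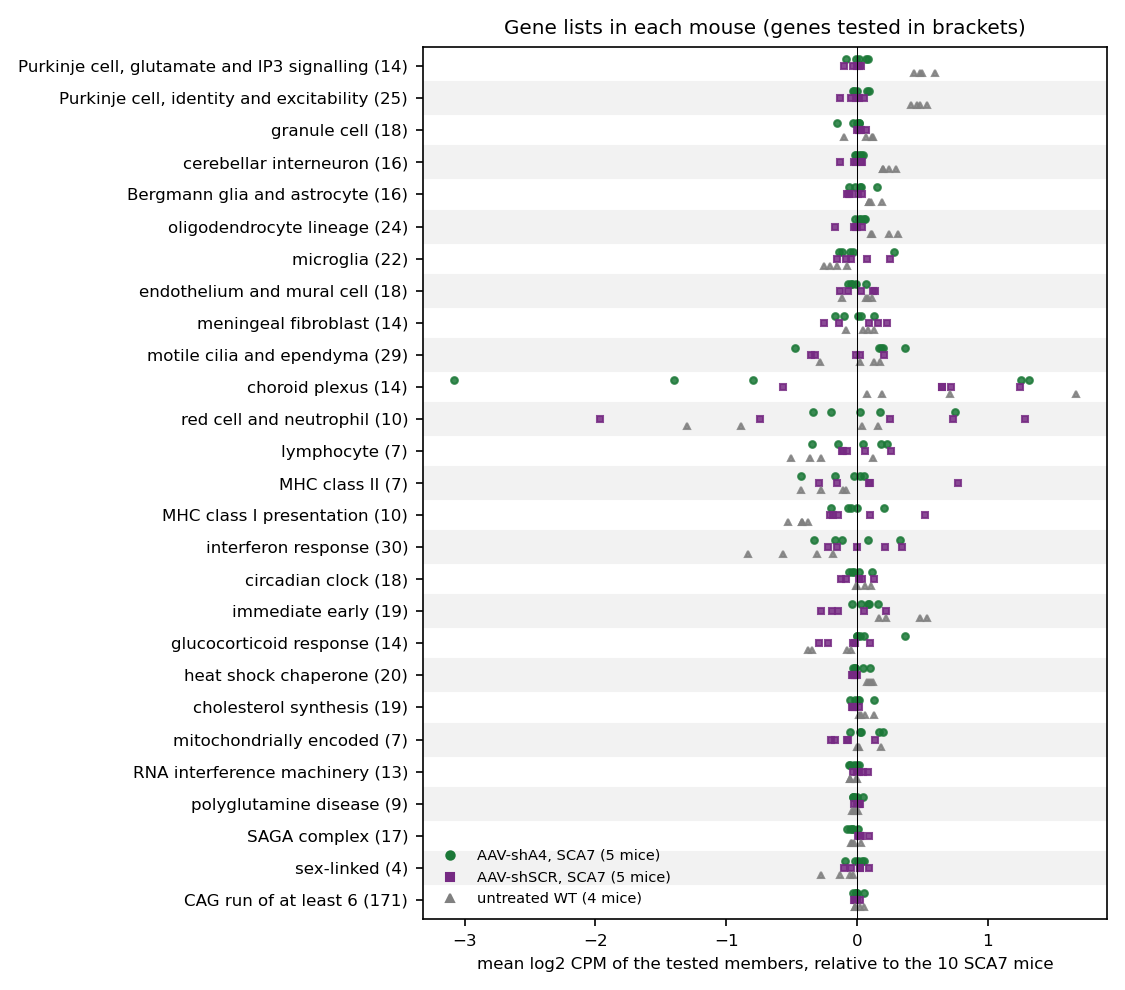
For each gene list (number of genes tested in brackets), each symbol is the mean log2 CPM of its members in 1 mouse, relative to the mean of the 10 SCA7 mice. AAV-shA4 and AAV-shSCR mice overlap in the PC, granule cell and glial lists, the WT mice lie to the right in the PC lists, and the choroid plexus list spreads widely within the AAV-shA4 group, where all 14 genes had a lower mean.

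Genes whose proteins the study followed for safety were then examined as mRNA. The study used western blots at earlier times after injection. It followed TH as a potential off-target of another shRNA, shA2R, and compared IRF7 and interferon beta between AAV-shSCR and saline. The values here are therefore another measure than those of the study. Th, the tyrosine hydroxylase that PCs express in the cerebellum, was at 5.76, 4.68, 6.18, 8.14 and 4.88 CPM in treated and 6.79, 5.82, 6.79, 4.44 and 6.92 CPM in control mice, a log2 fold change of −0.062 that turned to 0.010 without AAV-shA4 replicate 2. Both groups lay below the WT mice, at 12.5 to 19.97 CPM. Gfap, the intermediate filament that reactive astrocytes raise, was at 169.5, 159, 174, 165 and 154 CPM with AAV-shA4 and 213, 175, 181.4, 183 and 160.1 CPM with AAV-shSCR, a log2 fold change of −0.15 (unadjusted p = 0.0268, adjusted p = 0.563 by edgeR's quasi-likelihood test). Without AAV-shSCR replicate 1, the highest control, it was −0.089 (unadjusted p = 0.101 by the same edgeR test). Irf7, a regulator of interferon genes, was at 10.3, 9.96, 8.68, 8.94 and 8.63 CPM against 13.0, 14.9, 7.14, 8.22 and 10.2 CPM (−0.20, adjusted p = 0.800 by the same edgeR test), with AAV-shSCR replicate 2 the farthest out and a log2 fold change of −0.048 without it. In both groups Irf7 lay above the WT mice, at 3.65 to 7.06 CPM, by a log2 fold change of 1.11 with AAV-shSCR and 0.92 with AAV-shA4. The WT mice had no vector, so that genotype and vector cannot be told apart here. Ifnb1, which encodes interferon beta, had 0 counts in all 14 late libraries.

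Immune genes were more often lower than higher with AAV-shA4. Interferon response genes were lower in 23 of 30 members (median log2 fold change −0.084), 1 of them, Stat2, at an unadjusted p under 0.05. That is 3.33% of the list, where 3.98% of all genes were lower at such a p. Stat2, which carries the interferon signal to the nucleus, was at 103, 103, 107, 114 and 110.3 CPM against 128, 126, 109.8, 123 and 117 CPM. The median was 0.018 without AAV-shSCR replicate 2 and −0.16 without AAV-shA4 replicate 2. All 7 MHC class II genes were lower (median −0.23, and −0.063 without AAV-shSCR replicate 1). Cd74, the invariant chain, was at 24.0, 14.8, 15.1, 10.6 and 10.3 CPM in control mice and 11.7, 12.8, 8.99, 13.8 and 9.57 CPM in treated mice, and its log2 fold change of −0.39 was −0.16 without that mouse. H2-Ab1 was at 7.45 CPM in that mouse and 3.51 to 4.49 CPM in the other controls. Nlrc5, the activator of MHC class I genes, was at 7.48 CPM in it, and its log2 fold change of −0.28 became 0.11 without it. The MHC class I genes had a median of −0.035, with 3 of 10 higher, and it was 0.069 without the same mouse. Lymphocyte genes were scarce, with 7 of 20 members testable (median −0.15, and 0.10 without AAV-shSCR replicate 3). The red cell and neutrophil list had a median of −0.52, which was −0.041 without AAV-shSCR replicate 3 and −0.78 without AAV-shSCR replicate 5. In it, the globin gene Hbb-bs was at 16.7 CPM in AAV-shSCR replicate 1, and its log2 fold change of −1.05 was −0.44 without it. Globin genes have near-identical copies, so that reads may be split among them. Set against the WT mice, the interferon response list had a median log2 fold change of 0.46 with AAV-shSCR and 0.40 with AAV-shA4. The MHC class I list was at 0.48 and 0.39, and the MHC class II list at 0.34 and 0.12. Genotype and vector differ together in these contrasts with WT mice and cannot be told apart.

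Immediate early genes, which neurons induce within minutes of activity or stress, differed in both directions. Of the 19 immediate early genes tested, 12 were higher with AAV-shA4 (median log2 fold change 0.14), with an unadjusted p under 0.05 in 4 of them, Egr1 (0.43), Klf2 (0.58), Klf4 (0.35) and Homer1 (0.13). It was under 0.05 in 3 lower members as well, Jun (−0.22), Atf3 (−0.40) and Arc. These are 21.1% higher and 15.8% lower of those tested, where all genes gave 4.24% and 3.98%. Arc, a synaptic protein made on activity, was at 25.5, 30.2, 24.2, 26.3 and 26.9 CPM in treated and 33.2, 28.2, 33.0, 33.9 and 31.5 CPM in control mice, a log2 fold change of −0.26. Without the 3 libraries the median of this list was 0.036. Genes that respond to glucocorticoids were higher in 14 of 14 members, by a median of 0.17 (0.092 to 0.23 with 1 mouse left out, 0.22 without the 3 libraries). Their summed level overlapped between the groups, at 797 to 1101 CPM in treated and 674 to 895 CPM in control mice. It was highest in AAV-shA4 replicate 2 and lowest in AAV-shSCR replicate 4. Members that respond together do not count as separate observations. Tsc22d3, a mediator of steroid action, was at 116, 171.3, 131, 125 and 119 CPM against 108, 111, 100.3, 82.4 and 123 CPM, with AAV-shA4 replicate 2 above all others, and its log2 fold change was 0.34 with and 0.22 without that mouse. Sgk1, a steroid-induced kinase, was at 101.8, 96.5, 92.7, 105 and 102.1 CPM against 80.1, 88.7, 80.4, 75.8 and 95.2 CPM (0.24). Clock genes had a median of −0.00062, with 9 of 18 higher and 0 at an unadjusted p under 0.05, and the clock gene with the smallest p, Per1, was at 121 to 148 CPM against 97.3 to 143 CPM.

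Chaperone genes had a median of 0.036 (13 of 20 higher), Dnajb5, a co-chaperone of Hsp70, being lower at an unadjusted p of 0.00513 by edgeR's quasi-likelihood test (log2 fold change −0.11). Cholesterol synthesis genes had a median of 0.012 (11 of 19 higher), and of −0.018 without AAV-shA4 replicate 2. Of the 13 mitochondrially encoded genes, 7 could be tested and all 7 were higher (median 0.15). At an unadjusted p under 0.05 were 3 of them, 42.9% where all genes gave 4.24%. The cytochrome oxidase subunit mt-Co1 was at 8738, 8979, 8966, 9065 and 8670.0 CPM in treated and 7797, 8008, 8189, 7486 and 8628 CPM in control mice, and mt-Nd1 of complex I at 5904, 6177, 6402, 6317 and 5967 against 5372, 5344, 5534, 4874 and 5811 CPM, neither with overlap. In WT mice mt-Co1 was at 8825 to 9968 CPM and mt-Nd1 at 5728 to 7107 CPM. Nuclear copies of mitochondrial sequence share reads with these genes, and 4 members are listed at 0 in every late library, so that their levels are uncertain.

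Genes of the RNA interference machinery, which an shRNA passes through, were lower with AAV-shA4 in 12 of 13 members, by a small median of −0.046 on the log2 scale (−0.060 to −0.028 with 1 mouse left out). Ago1, an Argonaute, was at 123, 121, 128, 133 and 132 CPM in treated and 139, 137, 128, 139.8 and 139 CPM in control mice, and overlap came from AAV-shSCR replicate 3, the lowest control. Its log2 fold change was −0.10, that of Tnrc6c, a scaffold of silencing complexes, −0.10 (−0.046 without the 3 libraries), and that of Dgcr8, of primary microRNA processing, −0.11, each at an unadjusted p under 0.05 and none under the adjusted one. They make up 23.1% of this list, where 3.98% of all genes were lower at such a p. The genes of the other polyglutamine diseases and Atxn7 had a median of −0.040, with 6 of 9 lower. Htt, the Huntington's disease gene, was at 257, 254, 262, 255 and 261 CPM in treated and 263, 265, 268, 273 and 272 CPM in control mice, without overlap but with a log2 fold change of −0.057 ± 0.021 (SE; adjusted p = 0.532 by edgeR's quasi-likelihood test after Benjamini-Hochberg adjustment). The SAGA genes, the partners of ataxin-7, had a median of −0.043, with 8 of 17 higher. At an unadjusted p under 0.05 were the adaptor Tada2b, higher at 0.12, and Trrap (−0.063), Taf12 (−0.12) and Taf9, lower. These are 5.88% higher and 17.6% lower of those tested, where all genes gave 4.24% and 3.98%. Taf9 rests on few reads, with a mean of 0.158 CPM in treated and 0.366 CPM in control mice.

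Genes with a run of at least 6 CAG in an annotated transcript were set beside all genes, since shA4 is directed at this repeat. Of the 209 such genes, those with enough reads were tested, and 106 were lower and 65 higher with AAV-shA4, with a median log2 fold change of −0.021 (−0.028 to −0.016 with 1 mouse left out, −0.019 without the 3 libraries). An unadjusted p under 0.05 was reached by 17 lower, 9.94% of those tested where all genes gave 3.98%, and 4 higher, 2.34% where all genes gave 4.24%. None was called. Maml3, a Notch co-activator whose run of 8 CAG is shown above, was at 29.9, 32.1, 30.4, 30.3 and 29.0 CPM in treated and 35.3, 34.9, 33.7, 33.3 and 32.5 CPM in control mice. Crebbp, a histone acetyltransferase with the run of 6 shown above, was at 111, 103, 112, 103 and 107 CPM against 115, 117, 114, 124 and 117 CPM. In both genes every treated mouse was below every control mouse and above the mean of the WT mice, at 27.8 ± 1.20 and 96.8 ± 4.69 CPM (SD, n = 4). The log2 fold changes were −0.16 ± 0.039 and −0.13 ± 0.036 (SE), with an adjusted p of 0.325 and 0.450 by edgeR's quasi-likelihood test after Benjamini-Hochberg adjustment. Maml3 and Crebbp were chosen for the smallest p of the list in these same mice, which favours separate groups and high values with AAV-shSCR. Their lack of overlap is therefore no independent support, and no move towards WT can be read from them. In the list, groups did not overlap in 4 lower and 0 higher members, where 0.754% of all genes tested did not in each direction. The 17 lower members had log2 fold changes of −0.39 (Cd74, which was at −0.16 without AAV-shSCR replicate 1) to −0.058, and among the 4 higher ones were Kcnn3, a calcium-activated potassium channel (0.21), and Sh3kbp1, an endocytic adaptor (0.22).

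Which mice drive the differences was measured by leaving out each of the 10 SCA7 mice in turn and taking the mouse whose loss lowered a gene's fold change most. A mouse without which a gene had too few reads to be tested could not be taken for that gene, so that the counts per mouse are approximate. The fold limit of 1.3 was passed, whatever the p, by 597 genes (4.02%), 398 higher and 199 lower with AAV-shA4. This count happens to equal that of the genes called with AAV-shSCR against WT mice. Of the genes past the limit, 390 had a mean under 1 CPM. AAV-shA4 replicate 1 was the driving mouse of 195 of the 597 genes (32.7%), AAV-shA4 replicate 2 of 99 (16.6%) and AAV-shSCR replicate 4 of 57, and each of the other 7 mice of 25 to 44. Among the genes that were higher and had a mean of at least 1 CPM, 113 (68.1%) rested most on AAV-shA4 replicate 1 and 24 (14.5%) on AAV-shA4 replicate 2, and among the 41 lower ones 15 rested on AAV-shA4 replicate 2. When each of the 10 mice was left out in turn, 205 of the 597 genes stayed past the fold limit in every fit. Of these, 61 had a mean of at least 1 CPM. The other 392 dropped below the limit, or had too few reads to be tested, in some fit. Groups did not overlap in 224 genes (1.51%), of which 44 also passed the fold limit, and of the 32 higher among these 20 rested most on AAV-shA4 replicate 1.

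The number of genes under an unadjusted p of 0.05 depended on a control mouse. It was 1222 with all mice, 779 without AAV-shSCR replicate 4, 945 without AAV-shA4 replicate 1 and 1008 without the 3 libraries. Leaving out any other SCA7 mouse gave 1080 (AAV-shSCR replicate 2) to 1419 (AAV-shA4 replicate 5) genes. Of the 1222 genes, 431 stayed under 0.05 in all of the 10 fits. AAV-shSCR replicate 4 was the control farthest from the treated mice in several leading genes, such as Nefl at 187 CPM, Phldb2 at 30.4 CPM and Scn4b at 80.4 CPM. In the first 2 principal components of the 10 mice, which held 26.8% and 17.4% of the variance, the outermost mice were AAV-shA4 replicates 1 and 2, at 25.2 and −29.1 on the first, and AAV-shA4 replicate 1, at 25.1, with AAV-shSCR replicate 4, at −15.3, on the second.

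**Figure D4:**
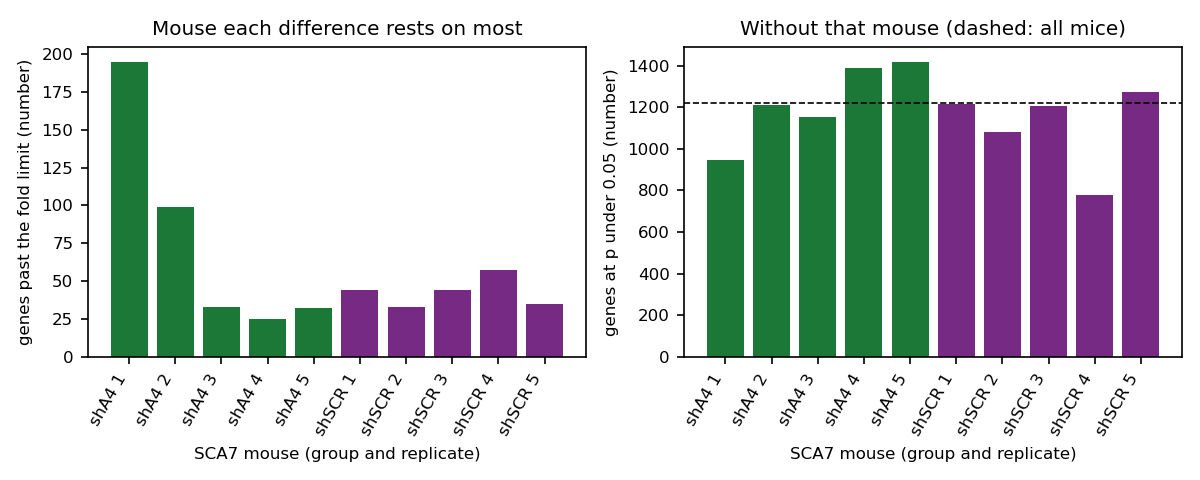
Bars on the left give, for each of the 10 SCA7 mice, the number of genes past the fold limit of 1.3 that rest most on it, and bars on the right the number of genes at an unadjusted p under 0.05 when that mouse is left out, with the dashed line at 1222 for all mice. AAV-shA4 replicate 1 carries 195 of 597 genes on the left, and the count on the right is lowest, at 779, without AAV-shSCR replicate 4.

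The fold changes of Cbln2 and Nrgn, the largest of the named genes, rested on AAV-shA4 replicate 1 and, to a lesser extent, on AAV-shA4 replicate 3. Cbln2 had a log2 fold change of 4.09, with 13.3, 0.0785, 1.38, 0.256 and 0.330 CPM in treated and 0.179, 0.285, 0.273, 0.0585 and 0.106 CPM in control mice. It was 1.46 without AAV-shA4 replicate 1 and 0.27 without the 3 libraries. Nrgn, the calmodulin-binding protein neurogranin of forebrain neurons, was at 121, 2.96, 15.5, 2.53 and 3.55 CPM against 2.10 to 2.89 CPM, with 123 CPM in WT replicate 1. Its log2 fold change of 3.52 was 1.25 and 0.23 in the same fits. Slc17a6, the vesicular glutamate transporter of brainstem and deep nuclei, was higher in all treated mice, at 75.0, 21.2, 30.1, 24.4 and 31.3 CPM against 19.1, 18.7, 19.5, 14.6 and 17.0 CPM, with a log2 fold change of 1.04 and 0.53 without the 3 libraries.

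Transcription factors of neurons outside the cerebellar cortex, named after their values were seen, showed the same mice. Lhx9 was at 18.5 CPM in AAV-shA4 replicate 1, 2.61 in AAV-shA4 replicate 3 and 17.6 in WT replicate 1, and 0.532 to 1.07 CPM in control mice. Tfap2d was at 5.41, 0.674 and 6.01 CPM in these mice. Pou4f2, Gata3 and Lhx2 were at 1.92, 1.68 and 3.46 CPM in AAV-shA4 replicate 1 and at 1.68, 1.95 and 3.67 CPM in WT replicate 1. AAV-shA4 replicate 3 was above all controls in Lhx9 and Tfap2d, but had 5, 4 and 12 reads of Pou4f2, Gata3 and Lhx2, close to the controls, which had up to 5, 4 and 10 reads. Their part in other differences was not tested beyond the values without the 3 libraries.

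AAV-shA4 replicate 2 and some controls carried other single genes. Prokr2, a prokineticin receptor, was at 13.2 CPM in AAV-shA4 replicate 2 and at most at 1.60 CPM in the other late mice, and its log2 fold change of 1.76 was 0.12 without that mouse. Tmem30b was at 4.39 CPM in the same mouse (0.47 with it and 0.074 without it). Ttr, the thyroxine carrier that choroid plexus makes, was at 3139, 21.8, 476, 299 and 2733 CPM in treated and 594, 2764, 1829, 1918 and 1636 CPM in control mice. Pomc, the precursor of pituitary peptides, was at 15.02 CPM in AAV-shSCR replicate 2, and its log2 fold change of −1.65 was −0.10 without it. Gh, growth hormone, was at 10.7 CPM in AAV-shA4 replicate 5 and 5.91 CPM in AAV-shSCR replicate 2, and WT mice reached 0.935 to 21.5 CPM.

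**Figure D5:**
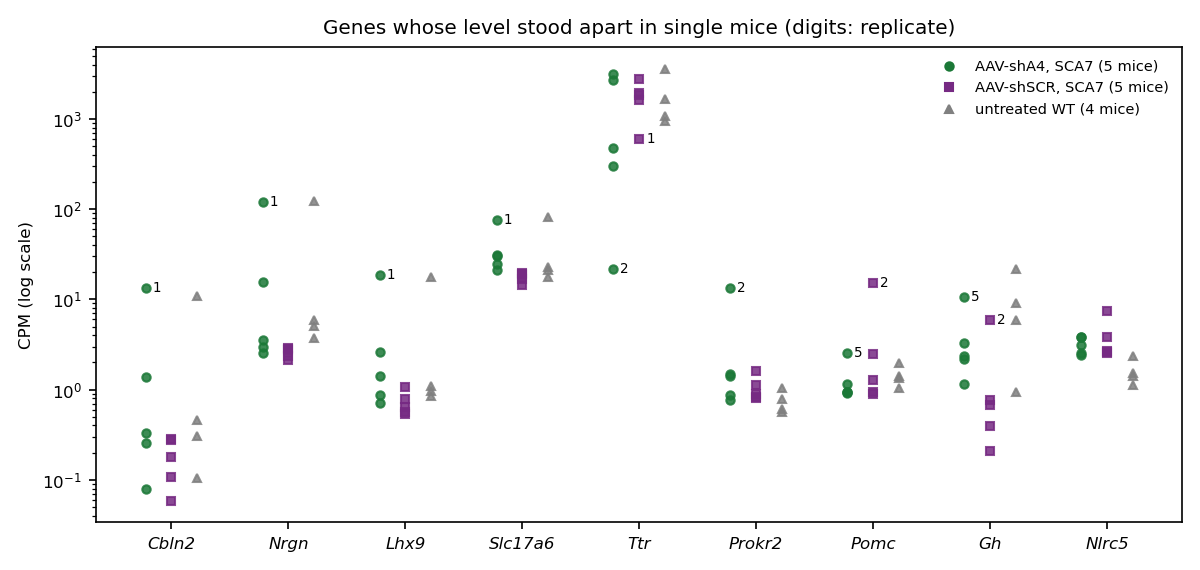
Each symbol is 1 mouse, with the level in CPM on a log scale on the y axis, for genes whose level stood apart in single mice, marked with the replicate number. Cbln2 and Nrgn stand out in AAV-shA4 replicate 1 and WT replicate 1, Prokr2 in AAV-shA4 replicate 2 and Pomc in AAV-shSCR replicate 2, while Ttr ranges from 21.8 to 3139 CPM within the AAV-shA4 group.

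The WT mice at 9 weeks share no mouse with the SCA7 comparison, but their control is untreated and not AAV-shSCR, so that the effect of the vector is not separated from that of shA4, and both the labelled week and the genotype differ. In them, 8 of 14733 genes were called between 3 AAV-shA4 and 3 untreated mice (0.0543%), by edgeR's quasi-likelihood test after Benjamini-Hochberg adjustment. An unadjusted p under 0.05 by the same test was reached by 1639 genes (11.1%). The 8 leading genes that were higher in SCA7 mice with AAV-shA4 were higher in 4 cases there, among them Dusp6 at 27.5 ± 2.59 against 21.5 ± 1.66 CPM and Amigo2 at 24.9 ± 0.519 against 19.9 ± 1.17 CPM (SD, n = 3 each). Nefl was at 243 ± 21.4 against 241 ± 27.6 CPM, Scn4b at 124 ± 7.33 against 127 ± 5.31 CPM, and Phldb2 at 16.9 ± 2.17 against 15.6 ± 0.937 CPM (SD, n = 3 each). Of the 8 leading lower genes, 2 were higher and 6 lower in the early WT mice, with Jun at a log2 fold change of −0.25 and Cbfa2t3 at −0.31. Maml3 and Crebbp differed by 0.041 and −0.053, and of the genes with a CAG run 87 of 170 were higher with AAV-shA4 (median 0.0020).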

How the data were processed

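Cerebellar RNA of 1 mouse per library was sequenced by the authors as stranded, polyadenylated, single 50-base reads. For the deposited counts the authors trimmed the reads (cutadapt 1.10), removed ribosomal reads (Bowtie2 2.2.8), mapped the others to mm10 (STAR 2.5.3a) and counted them on Ensembl 102 genes (HTSeq 0.6.1p1), after bcl2fastq 2.20.0.422, with versions from the submitters' processing notes. The deposited values are raw read counts per gene, not normalized. Whether the counting used strand is not given in the sources used here, so that reads of overlapping or antisense genes may not be told apart.

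Counts of protein-coding genes of GENCODE M21 (GRCm38) were analysed with R 4.3.3, edgeR 4.0.16 (limma 3.58.1) and, as an alternative, DESeq2 1.42.0 (the study used an earlier version of DESeq2). The 260 genes of the table without an entry in that annotation were left out, and 21897 were protein-coding. The 14 late libraries were fitted together by group, with TMM, filterByExpr (at least 10 counts, total of at least 15) and the quasi-likelihood test, followed by Benjamini-Hochberg adjustment. A gene was called at an adjusted p under 0.05 and a fold above 1.3. Intervals are at 95%. Permutation tests used log2 of CPM plus 0.1. CAG runs were searched in 141767 transcripts. The script was tested on simulated data.

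Genes are named by rule: Atxn7, the PC genes and safety genes that the study names, the 8 genes per direction with the smallest unadjusted p and a mean of at least 1 CPM (as none was called), the 2 members of each list with the smallest p, and 8 genes that rest most on 1 mouse (at most 2 per mouse). Other list members under an unadjusted p of 0.05 and the genes said to be named after their values were seen fall outside it. Results of 2 genes that the rule takes, 1 of them among the 8 leading lower genes, are not reported here. The members and gene lists were chosen with earlier results of these data known. Lists are described by counts and medians, not tested. Replicates of 1 group differed by more than counting noise (chi-squared per degree of freedom 4.80 to 25.9 in 20 pairs). Whether this spread or the depth limits the precision was not measured gene by gene, and genes with few reads, such as Taf9, are also limited by their counts. Depth in the WT mice was 39036803 to 54570503 reads. Alternatives were RLE and upper quartile scaling, robust dispersion, no filter on low counts, the 10 SCA7 libraries alone, genes of every type, DESeq2, a replicate block, each mouse left out and, chosen after seeing the data, 3 libraries left out together.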

Additional observations from a re-analysis of the deposited data

Results flagged for a closer look

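Within each group of 4 or 5 mice, the level of each named gene was searched for a single mouse far from the others by Dixon's test, in 276 groups of values, and 36 were found. Chance gives about 1 in 20 groups, and the genes that rest on 1 mouse, with those of the libraries that stand apart, were chosen for such a pattern. In each case the value of the mouse is given, and no explanation was tested.

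In AAV-shA4 replicate 1, the mouse that the most genes past the fold limit rest on, the levels that stood out were 13.3 CPM of Cbln2, 121 CPM of Nrgn, 18.5 CPM of Lhx9, 75.0 CPM of Slc17a6, 5.41 CPM of Tfap2d, 1.92 CPM of Pou4f2, 3.46 CPM of Lhx2 and 1.68 CPM of Gata3, all high. Tiam1, a granule cell gene, was low there at 297 CPM, where the other treated mice were at 336 CPM or more.

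WT replicate 1 stood out in the same 8 genes, with 11.0 CPM of Cbln2, 123 CPM of Nrgn, 17.6 CPM of Lhx9, 80.9 CPM of Slc17a6, 6.01 CPM of Tfap2d, 1.68 CPM of Pou4f2, 3.67 CPM of Lhx2 and 1.95 CPM of Gata3. It was also the highest WT mouse in Hapln1 at 8.75 CPM, Cacng3 at 15.9 CPM and Dusp6 at 25.8 CPM, and the lowest in Grm2 at 30.2 CPM. WT replicate 2 was the lowest in Trpv2 at 19.6 CPM and the highest in Taf9 at 0.429 CPM.

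Among the treated mice, AAV-shA4 replicate 2 was high in Prokr2 at 13.2 CPM, Tmem30b at 4.39 CPM and Tsc22d3 at 171.3 CPM. AAV-shA4 replicate 3 was high in Htr1b at 22.9 CPM. AAV-shA4 replicate 5 was high in Pomc at 2.56 CPM and Gh at 10.7 CPM and low in Kcnip1 at 49.6 CPM. Among the controls, AAV-shSCR replicate 1 was high in H2-Ab1 at 7.45 CPM and Nlrc5 at 7.48 CPM, and AAV-shSCR replicate 2 in Pomc at 15.02 CPM and Gh at 5.91 CPM. AAV-shSCR replicate 3 was low in Ago1 at 128 CPM, and AAV-shSCR replicate 4 high in Phldb2 at 30.4 CPM.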

How the results depend on the processing

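The count of called genes was 0 under each edgeR setting, with each of the 14 mice left out too, and 4 with DESeq2. Genes under an unadjusted p of 0.05 were 779 (without AAV-shSCR replicate 4) to 1419 (without AAV-shA4 replicate 5) with 1 mouse left out, beside 1222. Genes past the fold limit were 576 to 746 with 1 mouse left out, 2835 with no filter on low counts and 1253 with genes of every type, beside 597; both of the latter test more genes. The log2 fold change of Atxn7 stayed negative, −0.068 to −0.012 with 1 mouse left out. Of 88 named genes, 84 never changed direction. The exceptions, with 1 mouse left out, were Th (−0.20 to 0.010), Nlrc5 (−0.39 to 0.11), Uty (−0.046 to 0.017) and Ddx3y (−0.023 to 0.059), Ddx3y also without the 3 libraries (−0.043). An adjusted p under 0.05 was reached by 17 named genes with DESeq2, by Nefl and Phldb2 with the 10 SCA7 libraries alone, by Nefl without WT replicate 1 and by Phldb2 without WT replicate 4. List medians that moved by more than the spread between mice were those of granule cells (−0.0027), chaperones (−0.016) and cholesterol synthesis (0.061) without the 3 libraries, lymphocytes (0.096) and SAGA genes (−0.0096) without AAV-shSCR replicate 3, and polyglutamine genes (−0.012) without AAV-shA4 replicate 1 or AAV-shSCR replicate 2. The replicate numbers do not pair the mice (correlations of deviations −0.21 to 0.011), and with the replicate block 0 genes were called, 1270 had an unadjusted p under 0.05, 589 passed the fold limit and Atxn7 was at −0.040. The causes of these shifts were not tested.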
